A study of Medicago sativa with 6 samples.

Results

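In alfalfa (Medicago sativa), a tetraploid forage legume, 238 of 164633 annotated genes were high in flower, seedpod and stem together and at least 10-fold lower in leaf, nodules and roots. RNA came from plants of the genotype RegenSY27x, which all 6 tissues shared, grown with 16 hours of light at 22 °C and nights at 18 °C. Plants were 8 weeks old by the growth protocol, but the stage label reads 20 in a unit that could not be settled. For each tissue, RNA of 3 replicates was pooled into 1 library. The groups are therefore single libraries of flower (titled as flower buds), seedpod and stem on one side, and of leaf, nodules and roots on the other. Library totals ran from 8568581 counts in roots to 9883512 in nodules.

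The 238 genes were chosen by their measured levels. Each had 10 or more TMM CPM in each of flower, seedpod and stem, and the lowest of these 3 levels was at least 10 times the highest of leaf, nodules and roots. TMM CPM are counts per 1000000 of a library total that was corrected with edgeR's trimmed mean of M-values. Where leaf, nodules and roots all had 0 counts, the largest level that 3 counts give in any of them, 0.418 TMM CPM, took their place. The set makes up 0.145% of all annotated genes and 2.10% of the 11338 genes at 10 or more TMM CPM in all of flower, seedpod and stem. Since the rule fixes the direction and the minimum size of the difference, the levels below are a description. With 1 library per tissue no difference has a replicate check and no p-value is given. Intervals are exact 95% intervals of counting error (Poisson for levels, conditional binomial for ratios, Clopper-Pearson for shares). No molecular identifiers are named for these libraries, and their reads need not be independent molecules, so the intervals cover counting error only.

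A flower bud holds sepals, petals, anthers and carpels. The seedpod of a legume is the fruit that grows from the carpel, with developing seeds inside a pod wall, and the stem carries the vascular strands, fibres and internodes of the shoot. Leaf is the main photosynthetic organ, and nodules are root organs that house nitrogen-fixing bacteria. The files pair the gene identifiers with no gene names, and none of them matched the 63463 genes of an alfalfa reference annotation (Bolivia_mono, 0 matches). The function of these genes and tissue marker genes could therefore not be looked up. In whole tissues, fewer cells of a type and less RNA per cell cannot be told apart.

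The 238 genes carried 4.30% of all counts in flower (interval 4.29 to 4.32). The share was 4.16% in seedpod, with an interval of 4.14 to 4.17, and 4.03% in stem, with one of 4.02 to 4.05. In leaf they carried 0.0660% (0.0644 to 0.0678), in nodules 0.0274% (0.0264 to 0.0285) and in roots 0.0380% (0.0367 to 0.0393). The median gene of the set stood at 48.6 TMM CPM in flower, 57.5 in seedpod and 48.8 in stem, against 1.11 in leaf, 0.489 in nodules and 0.637 in roots. Levels spread widely within the set. The lowest of the 3 levels was between 10 and 20 TMM CPM in 89 genes, between 20 and 50 in 59, between 50 and 100 in 36 and at 100 or more in 54. The median ratio of that level to the highest of leaf, nodules and roots was 20.0, with 120 genes under 20 and 9 genes at 100 or more. Held to the lower end of the counting interval, 140 genes still had a ratio of 10. Without the leaf library on the low side, 586 genes met the rule, compared with 263 without nodules and 312 without roots.

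**Figure D1:**
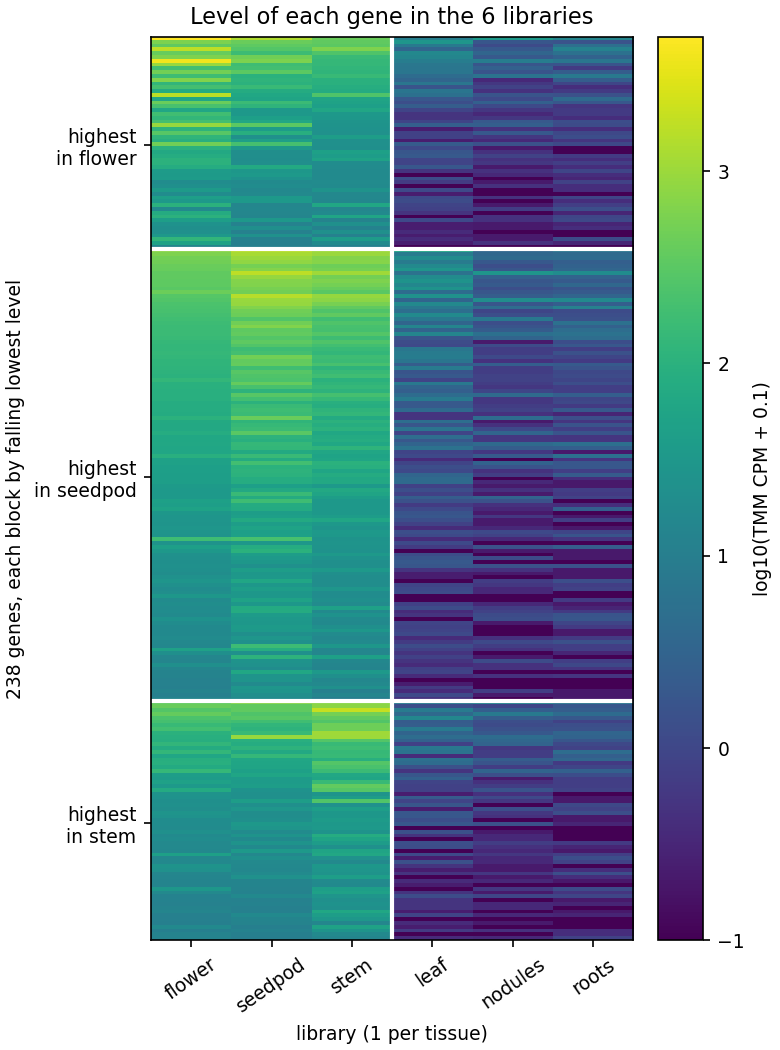
Level of each of the 238 genes (rows) in the 6 libraries (columns), as log10 of TMM CPM plus 0.1; rows are blocked by the tissue with the highest level and sorted within a block by the lowest of flower, seedpod and stem. Flower, seedpod and stem are bright across all blocks, the block highest in seedpod is the largest with 119 genes, and leaf is brighter than nodules and roots in many of the abundant rows.

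**Figure D2:**
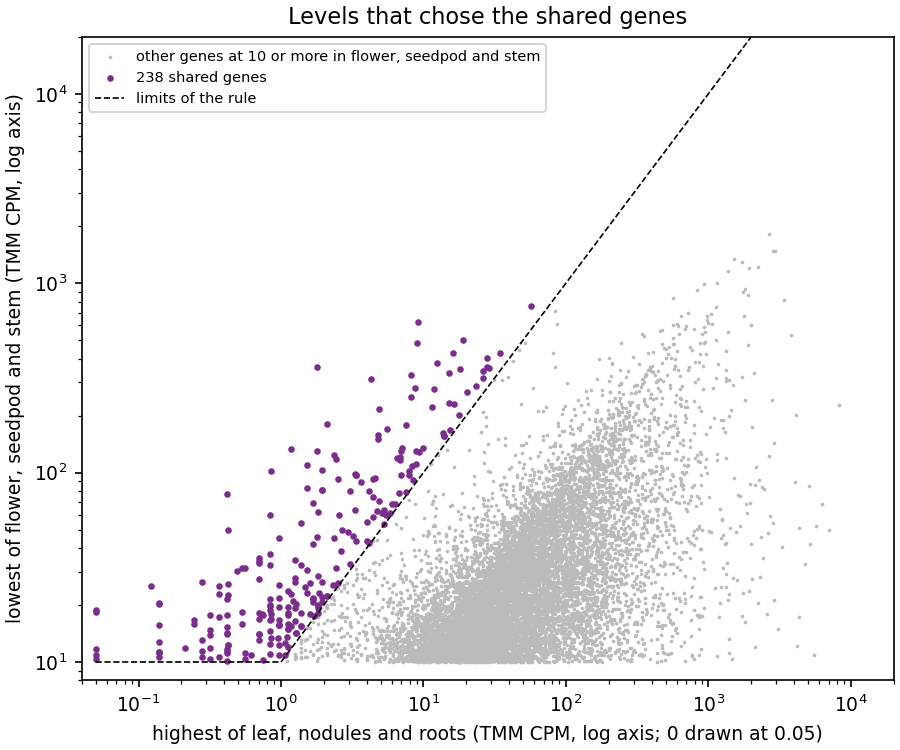
Lowest level of flower, seedpod and stem against the highest level of leaf, nodules and roots for the 11338 genes at 10 or more TMM CPM in all of the first 3 (both axes logarithmic, 1 point per gene). The 238 genes lie above the dashed limits that chose them, and 120 of them had a ratio under 20; highest levels of 0 are drawn at 0.05.

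The most abundant member by its lowest level was MS.gene029939 on chromosome 6.2 (68238146 to 68241210, minus strand, 6 exons, 870 nucleotides of coding length). It had 754 TMM CPM in flower, 1565 in seedpod and 1018 in stem, against 56.7 in leaf, 3.67 in nodules and 6.47 in roots. Leaf was the highest of the low side by a wide margin, and the ratio of flower to leaf was 13.3 (12.0 to 14.7), or 18.3 when libraries were scaled by their totals. MS.gene74655 on chromosome 6.3 (22825408 to 22828384, minus strand, 4 exons, 729 nucleotides) followed with 621 TMM CPM in flower, 1196 in seedpod and 966 in stem, against 9.19 in leaf, 3.67 in nodules and 4.14 in roots. Its ratio was 67.6 (53.0 to 87.5), or 92.9 with library totals. In both genes seedpod was highest and flower lowest of the 3. For the coordinates, the sources used here name no genome build.

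The next 8 genes in order of the lowest level are given by position. A 6-exon gene on chromosome 6.1 (59553527 to 59556616) with the coding length of MS.gene029939 had 499 TMM CPM in flower, 993 in seedpod and 666 in stem, against 19.1 in leaf, 4.03 in nodules and 4.24 in roots. A short 2-exon gene on chromosome 4.4 (73514678 to 73515897, 357 nucleotides) had 484, 839.8 and 696 TMM CPM in flower, seedpod and stem, against 9.05, 1.83 and 2.55 in leaf, nodules and roots. It had the highest lowest level of the set per length, 1355 TMM CPM per kilobase of coding length in flower, where the median of the set was 34.7. A gene on chromosome 8.3 (73911237 to 73913748, 5 exons) was nearly even, with 429 TMM CPM in flower, 516 in seedpod and 458 in stem, against 16.2 in leaf, 1.22 in nodules and 2.86 in roots.

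The gene on chromosome 7.1 (19882384 to 19886439, 9 exons, 1293 nucleotides) was the highest of all in a single tissue, at 4997 TMM CPM in flower, with 1384 in seedpod and 428 in stem, against 11.0 in leaf, 34.2 in nodules and 13.6 in roots. It was 1 of 31 members with nodules as the highest of the low side. On chromosome 3.2 (26691803 to 26693672) a 3-exon gene had 405, 671 and 527 TMM CPM in flower, seedpod and stem, against 28.1, 1.71 and 3.39 in leaf, nodules and roots. An 8-exon gene on chromosome 5.1 (18074430 to 18086639) had 377, 687 and 737, against 8.64, 12.5 and 6.68. A 3-exon gene on chromosome 3.3 (66923333 to 66926163) had 425, 361 and 776, against 1.25, 0.856 and 1.80. The last of the 8, on chromosome 4.4 (54953500 to 54955758, 7 exons), had 359, 1730.2 and 1059.6, against 5.71, 28.1 and 18.8. Of the 10 genes, 1 was highest in flower, 2 in stem and 7 in seedpod.

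The largest ratio among members with at least 10 counts on the low side belonged to the gene on chromosome 3.3 just described, 200.4 (125 to 344). A 4-exon gene on chromosome 8.2 (37308361 to 37310621) followed at 119.6 (60.5 to 278), with 127 TMM CPM in flower, 233 in seedpod and 101 in stem, against 0.836, 0.733 and 0.849 in leaf, nodules and roots. A single-exon gene on chromosome 6.3 (6559669 to 6560466) had a ratio of 114 (63.2 to 228), a 5-exon gene on chromosome 5.1 (21584158 to 21586131) 86.5 (52.3 to 155), and a 4-exon gene on chromosome 6.4 (6134193 to 6136773) 72.4 (45.1 to 125). The wide intervals reflect the low side: for these 4 genes the highest library of the low side held between 8 and 17 counts.

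In 5 genes leaf, nodules and roots had no count at all. On chromosome 8.2 (81241142 to 81242974) such a gene had 30.3 TMM CPM in flower, 31.1 in seedpod and 18.9 in stem. With 3 counts in place of 0, its ratio was 45.3. A gene on chromosome 7.2 (91224000 to 91224882) had 18.3, 28.5 and 32.8 TMM CPM and a ratio of 43.7 by the same floor. The other 3 lay on chromosomes 4.4, 5.1 and 7.2, with lowest levels of 10.4 to 11.7 TMM CPM and ratios of 24.8 to 28.1. These ratios use the level of 3 counts in leaf, the largest of the low side, so depth limits them. They are not lower bounds, since the interval of 0 counts in leaf reached 0.514 TMM CPM, above the 0.418 of 3 counts. Taking those 3 counts as observed, the counting intervals of the ratios began at 15.3 and 14.7 for the first pair and at 8.23 to 9.37, under the limit of 10, for the other 3.

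The rule bounded the lowest of flower, seedpod and stem, but it did not fix which of them was highest. Seedpod was highest in 119 genes (interval 43.5% to 56.5%), stem in 63 (26.5%, 21.0 to 32.6) and flower in 56 (23.5%, 18.3 to 29.4). Among the 11338 genes at 10 or more TMM CPM in all 3, seedpod was highest in 38.2%, stem in 27.6% and flower in 34.2%. The commonest order was seedpod, then stem, then flower, in 84 genes (35.3%) against 23.5% of the 11338. Flower was the lowest of the 3 in 115 genes (48.3%, interval 41.8 to 54.9), against 39.1% of the 11338. The highest tissue exceeded the next beyond counting error in 199 genes, comprising 108 highest in seedpod, 50 in stem and 41 in flower. This count is not given for the 11338, so whether it is particular to the set was not tested. Of the 54 genes at 100 or more TMM CPM in all 3, seedpod was highest in 35 (64.8%, interval 50.6 to 77.3), against 43.5% of the 817 such genes among the 11338, flower in 11 and stem in 8. Keeping only the most abundant member of each group of annotated copies, seedpod was highest in 29 of 46. Of the 89 genes whose lowest level was under 20, seedpod was highest in 31 (34.8%), against 36.2% of 5315, stem in 34 and flower in 24. Keeping 1 member per group, seedpod was highest in 24 of 78. The difference between these classes was not tested. Seedpod was the commonest highest tissue under the other 3 scalings too. It led in 116 of 227 genes with DESeq2 size factors and in 117 of 236 with TMM over genes of 10 or more counts. With library totals it led in 129 of 303, a smaller share than 119 of 238, and stem led in 100. Shares among all expressed genes are not given for these scalings. With 1 gene per group of annotated copies, the shares were 25.4% for flower, 45.7% for seedpod and 28.9% for stem.

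The levels in the 3 tissues lay further apart within the set than among all 11338 genes. The median of the highest over the lowest level was 2.15 in the set and 1.50 among the 11338 genes. Unlike the members, the 11338 genes were not chosen for a difference between libraries, and no set matched for that was compared. All 3 levels lay within 2-fold of each other in 97 genes (40.8%, interval 34.5 to 47.3), against 76.5% of the 11338. Within 4-fold lay 183 genes (76.9%), against 93.8%. Genes highest in flower were the least even, with a median of 3.91, compared with 2.08 for those highest in seedpod and 2.11 for those highest in stem. Medians by highest tissue are not given for the 11338 genes, so this split is not shown to be particular to the set. Across genes, which are not independent replicates, Pearson's r of log2 TMM CPM was 0.800 for seedpod and stem, 0.781 for flower and seedpod and 0.730 for flower and stem within the set (238 genes). All 3 came from the same libraries, and among the 11338 genes the values were 0.846, 0.800 and 0.781.

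**Figure D3:**
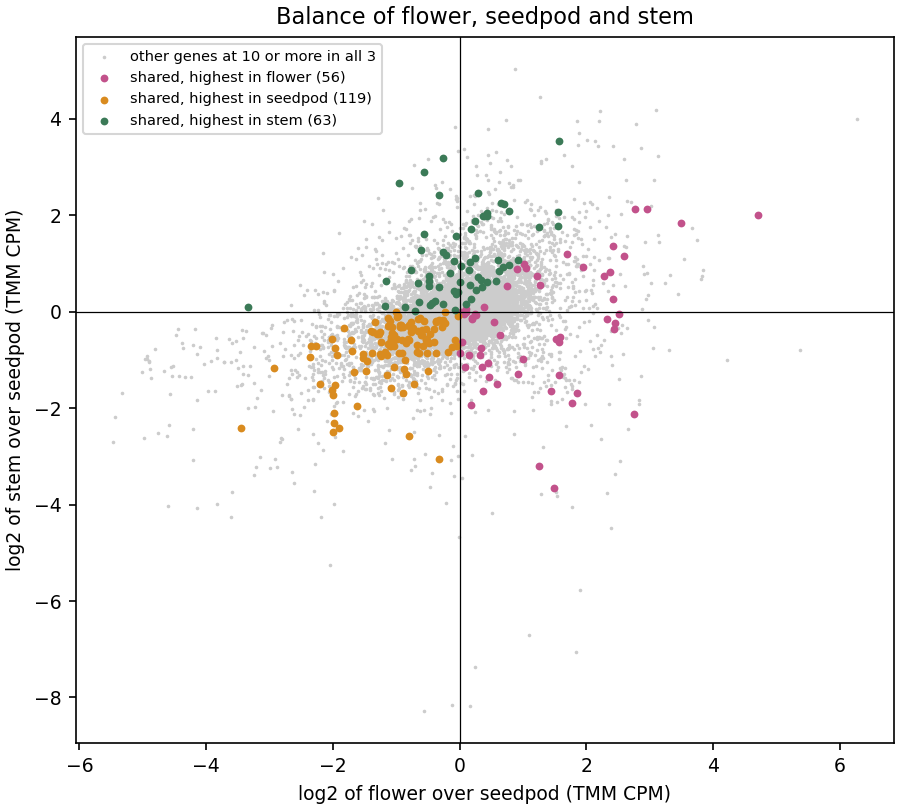
Log2 of flower over seedpod (horizontal) against log2 of stem over seedpod (vertical), 1 point per gene; coloured points are the 238 genes by their highest tissue and grey points the other genes at 10 or more TMM CPM in all 3. The 119 genes highest in seedpod fill the lower left, while the 56 genes highest in flower reach far to the right.

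The 5 least even members were all highest in flower. A 7-exon gene on chromosome 1.2 (57704932 to 57710348) had 933 TMM CPM in flower, 333 in seedpod and 26.2 in stem, against 2.51, 2.44 and 1.06 in leaf, nodules and roots, so that flower exceeded stem 35.6-fold. A 9-exon gene on chromosome 8.3 (71819912 to 71823665, 2598 nucleotides) had 3933, 586 and 135, against 9.89, 9.90 and 6.90. A single-exon gene on chromosome 3.3 (13601271 to 13601654, 384 nucleotides) had 1661, 63.3 and 255, against 5.29, 1.59 and 1.38. A second 7-exon gene on chromosome 1.2 (57619422 to 57624007) had 487, 205 and 22.4, against 2.09, 1.34 and 0.955, and a 9-exon gene on chromosome 7.2 (22537802 to 22542625) had 297, 86.4 and 23.2, against 0.696, 1.83 and 0.955. Their highest-to-lowest ratios were 29.1, 26.2, 21.8 and 12.8. For 4 of the 5, all but the gene of chromosome 8.3, the interval of the ratio to the low side reached under 10, down to 6.36.

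Genes led by 1 tissue by 4-fold or more over the next, a limit chosen after the values were seen, numbered 7 for flower, 5 for stem and 2 for seedpod. These numbers are not given for all genes expressed in flower, seedpod and stem, so whether they are particular to the set was not tested. Of the 5 led by stem, 4 were short genes on chromosome 4. On chromosome 4.1 a 2-exon gene (71166483 to 71167184, 351 nucleotides) had 281 TMM CPM in flower, 352 in seedpod and 1891 in stem, against 8.77 in leaf, 2.44 in nodules and 2.33 in roots. On chromosome 4.2 a 2-exon gene (75489910 to 75490645, 354 nucleotides) had 98.3 TMM CPM in flower, 145 in seedpod and 1074 in stem, and a neighbouring single-exon gene (75477239 to 75477595, 357 nucleotides) had 34.1, 40.9 and 371. On chromosome 4.4 a 2-exon gene (74127883 to 74128613, 351 nucleotides) had 21.6 in flower, 41.8 in seedpod and 265 in stem. Leaf, nodules and roots held at most 3.29 TMM CPM for these last 3 genes. Per kilobase of coding length, the gene on chromosome 4.1 stood at 5388 TMM CPM in stem. Of all 21 members shorter than 450 nucleotides, stem was highest in 11, seedpod in 6 and flower in 4. The 11 include the 4 genes of chromosome 4. Those on chromosomes 4.1 and 4.4 share 2 exons and 351 nucleotides and may be copies. Copies were matched only among genes with at least 3 exons, so the 11 need not be independent. No tally by highest tissue is given for the 957 genes under 450 nucleotides expressed in flower, seedpod and stem, so a lean to stem was not tested.

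Among the 7 led by flower, equal lengths recurred on different haplotypes of 1 chromosome. A pair with 2 exons and 471 nucleotides lay on chromosome 5.3 (23958756 to 23959699), at 932 TMM CPM in flower, 172 in seedpod and 134 in stem, and on chromosome 5.1 (25808292 to 25809299), at 631, 115 and 97.2. A pair with 1 exon and 663 nucleotides lay on chromosome 7.4 (78351253 to 78351915), at 185, 32.2 and 31.3, and on chromosome 7.1 (87710441 to 87711103), at 76.2, 14.3 and 17.2. The 9-exon gene of chromosome 2.1 (62387234 to 62392266), one of the 2 led by seedpod, had 15.0 in flower, 163 in seedpod and 30.7 in stem. In leaf, nodules and roots these 5 genes had at most 7.10, 1.71 and 2.33 TMM CPM.

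On the low side leaf was usually the highest tissue. It led in 153 of the 238 genes (64.3%, interval 57.8 to 70.4), roots in 49 and nodules in 31. Among the 11333 genes at 10 or more TMM CPM in flower, seedpod and stem with any count in the other 3, leaf was highest in 42.8%, roots in 32.3% and nodules in 24.9%. Restricted to the 179 members with at least 10 counts on the low side, leaf led in 119, roots in 37 and nodules in 23. The median level was 1.85% of the mean of flower, seedpod and stem in leaf, 0.699% in roots and 0.574% in nodules. In 45 members leaf stood at 1 TMM CPM or more and at 4 or more times both nodules and roots. Roots did so against leaf and nodules in 2 members, and nodules against leaf and roots in 0. This tally is not given for the 11333 genes, so whether it is particular to the set was not tested. Counts were few on the low side: 134 members had under 10 counts in leaf, 168 in nodules and 150 in roots. Compared with plain library totals, TMM moved log2 levels by -0.16 in flower, -0.04 in seedpod and -0.24 in stem. The shift was 0.30 in leaf, 0.27 in nodules and -0.14 in roots. With library totals leaf still led, in 181 of 303 genes, and roots led in 86.

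The rule did not use coding length or exon number, although counts, on which the level limit rests, grow with length. The median coding length was 1063.5 nucleotides (942 to 1104, from binomial order statistics), against 1303.5 (1284 to 1320) among the 11338 genes expressed in flower, seedpod and stem and 1215 among the 28247 genes at 10 or more TMM CPM in any library. Long genes were fewer and short ones about as common. Of the set, 2.52% (interval 0.931 to 5.41) exceeded 3000 nucleotides, against 9.51% of the 11338, while 8.82% were shorter than 450 nucleotides, against 8.44%. The median number of exons was 4, against 6. Single-exon genes made up 15.5% (11.2 to 20.8), against 11.7%, and 2-exon genes 17.6% (13.0 to 23.1), against 9.62%. Genes with 10 or more exons made up 13.4% (9.38 to 18.4), against 27.2%. The contrast was smaller beside the 28247 genes, of which 15.9% had a single exon, close to the share of the set. Of the 28247, 12.3% had 2 exons, 21.2% had 10 or more and 7.15% exceeded 3000 nucleotides, with a median of 5 exons. The intervals of the set treat genes as independent, which copies on different haplotypes are not. With 1 gene per group of copies, the median length was 993 nucleotides. Groups were formed only from genes with at least 3 exons, so all members with 1 or 2 exons stayed. This step therefore cannot show whether the length or exon number of the set rests on copies. The 56 genes highest in flower had a median of 2 exons, and those highest in seedpod or stem a median of 4. They were not shorter: the median coding length was 1176 nucleotides for genes highest in flower, 966 for seedpod and 1077 for stem. Such medians are not given for the 11338 genes.

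**Figure D4:**
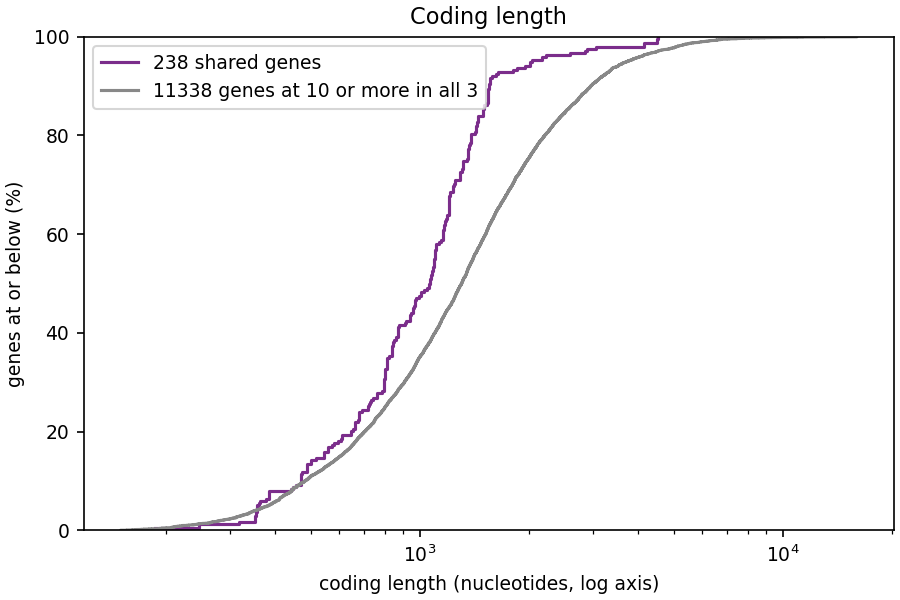
Cumulative share of genes by coding length (logarithmic axis) for the 238 genes and for the 11338 genes at 10 or more TMM CPM in flower, seedpod and stem. The curves nearly meet below 450 nucleotides and part above it, where the set rises faster to its median of 1063.5 nucleotides.

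The members were spread over all 8 chromosomes. Of the 8 shares compared, 2 differed from the 11338 genes beyond their own interval, which treats copies as independent. Chromosome 3 held 47 (19.7%, interval 14.9 to 25.4), against 12.6% of the 11338 genes, and chromosome 2 held 16 (6.72%, 3.89 to 10.7), against 11.9%. The other chromosomes held between 17 and 42, each with a share whose interval included that of the 11338 genes. The 4 haplotypes held 57, 64, 61 and 54 members, and 2 lay on unplaced scaffolds. No member overlapped another annotated gene on either strand, and whether counting used strand is not stated in any source used.

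Because alfalfa carries 4 haplotypes of each chromosome, a gene can appear in several annotated copies. Genes with the same chromosome number and identical exon lengths in order, with at least 3 exons, were taken as copies of 1 structure. Of the 238 members, 157 lay on chromosomes with at least 3 exons and could be matched. Among these, 108 had at least 1 such copy (68.8%, interval 60.9 to 75.9), against 64.2% of the 8837 matchable genes of the 11338. They fell in 67 groups with 250 genes, of which 142 lay outside the set. In 29 groups 2 or more copies were members (70 genes), and in 28 of these 29 groups all member copies were highest in the same tissue of flower, seedpod and stem. No such tally is given for the copies among the 8837 genes, so this is not shown to be particular to the set. The highest lowest-of-3 level among member copies was a median of 3.23 times the lowest, ranging from 1.10 to 23.2. How reads that match several copies were counted is not stated in any source used, so the share of each single copy is uncertain and the likeness of copies is not independent evidence.

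Copies outside the set fell short in level, in ratio or, most often, in both. Of the 142, 124 were under 10 TMM CPM in at least 1 of flower, seedpod and stem, 16 of all 142 had no count in any library, and 18 reached that level in all 3 with a ratio under 10 (0.562 to 9.55, median 6.55). Of the 124 low copies, only 18 had a ratio of 10 or more, and the rest missed both limits. In 83 of all 142 the lowest of flower, seedpod and stem was above the highest of leaf, nodules and roots. Copies on all 4 haplotypes were present in 22 of the 67 groups, and in 0 of these were all copies members. Counting each structure once left 197 genes or groups. Summing all copies of a structure before the rule also gave 197, of which 185 were the same, an alternative added after the data were seen.

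The largest group had 6 exons and 1203 nucleotides on chromosome 4, with 2 neighbouring copies on each haplotype. On chromosome 4.1 the copies had 118 and 45.2 TMM CPM in flower, 383 and 108 in seedpod and 219 and 58.8 in stem (31305550 to 31308312 and 31295019 to 31297778). On chromosome 4.4 they had 169.7 and 11.7 in flower, 486 and 26.4 in seedpod and 251 and 14.7 in stem (37140746 to 37143453 and 37129299 to 37132019). On chromosomes 4.2 and 4.3 1 copy of each pair was a member, with 221 and 158 TMM CPM in flower, 638 and 338 in seedpod and 349 and 207 in stem (35914434 to 35917199 and 33861249 to 33863978). Their partners were nearly silent, at up to 0.111 TMM CPM on chromosome 4.2 and up to 3.90 on chromosome 4.3. All 6 members were highest in seedpod. Summed over the 8 copies, the levels were 725 in flower, 1985 in seedpod and 1102 in stem, against 18.0 in leaf, 11.0 in nodules and 24.4 in roots. The summed ratio was 29.7.

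MS.gene029939 belonged to a group of 3 copies on chromosome 6, all members. The copy on chromosome 6.4 (44399290 to 44402632) was the lowest, with 62.7 TMM CPM in flower, 109 in seedpod and 73.1 in stem, against 4.74 in leaf, 0.489 in nodules and 0.424 in roots. The order seedpod, stem, flower held in each of the 3 copies, as did leaf as the highest of the low side, while the ratio was 13.3, 26.1 and 13.2 on chromosomes 6.2, 6.1 and 6.4. On chromosome 3 a group with 6 exons and 1314 nucleotides had 4 copies, of which the most abundant, on chromosome 3.1 (56334839 to 56337952), stayed outside the set. It had 444 TMM CPM in flower, 1963 in seedpod and 655 in stem, but 46.5 in leaf, a ratio of 9.55 (8.55 to 10.7). Its copies on chromosomes 3.2, 3.3 and 3.4 had ratios of 11.8 (9.64 to 14.7), 12.3 (9.39 to 16.3) and 13.8 (10.8 to 17.9). Seedpod stood 3.90 to 4.42 times above flower in the 4 copies, and the ratio interval of the copy outside overlapped those on chromosomes 3.2 and 3.3 but ended just under that on chromosome 3.4.

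The 9-exon gene of chromosome 7.1 at 4997 TMM CPM in flower was 1 of 4 copies. On chromosome 7.3 (23503940 to 23507973) its copy had 425 TMM CPM in flower, 157 in seedpod and 49.8 in stem, against 1.25 in leaf, 2.69 in nodules and 1.80 in roots. The copy on chromosome 7.2, given above, was lower, and that on chromosome 7.4 (22205703 to 22212179) had 1.89 in flower and 19 counts there. In each of the 3 members flower was highest, then seedpod, then stem, and nodules were the highest of the low side. The nearly even gene of chromosome 8.3 was 1 of 4 copies too. Its copy on chromosome 8.2 (78319071 to 78321589) was also a member and had 357, 341 and 329 TMM CPM in flower, seedpod and stem, against 8.22, 1.10 and 5.09 in leaf, nodules and roots. The copies on chromosomes 8.1 and 8.4 had at most 2.11 TMM CPM in any library. This was the 1 group of the 29 whose members differed in the highest tissue, flower on chromosome 8.2 and seedpod on chromosome 8.3.

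**Figure D5:**
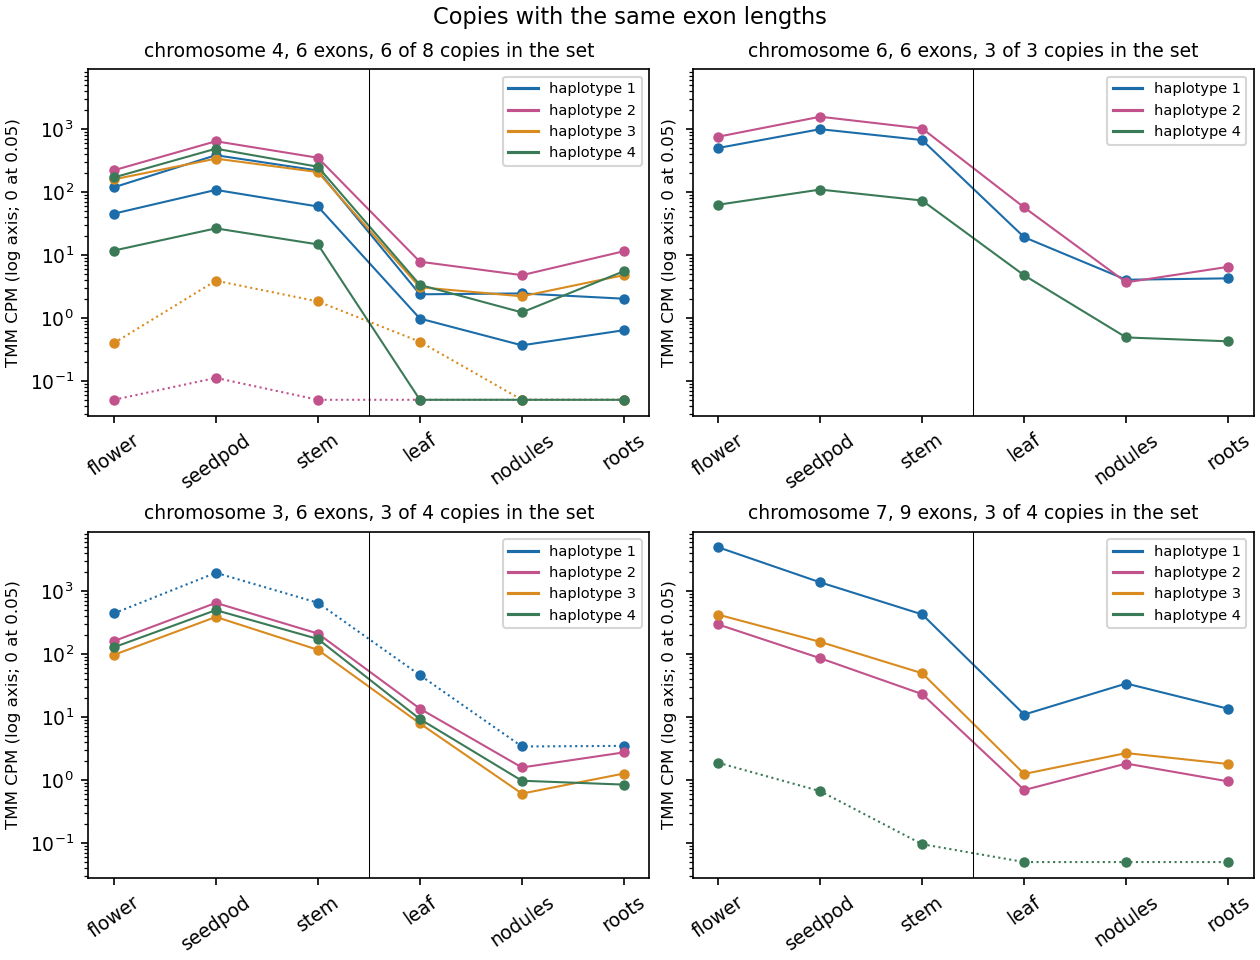
TMM CPM (logarithmic axis) in the 6 libraries for the copies of 4 structure groups, 1 line per gene, coloured by haplotype; solid lines are members and dotted lines copies outside the set. Member lines of a group keep one order of flower, seedpod and stem at different heights, as on chromosome 6, where the 3 copies had 109 to 1565 TMM CPM in seedpod; levels of 0 are drawn at 0.05.

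Within 100 kilobases of another member lay 30 genes, in 12 clusters of 2 and 2 clusters of 3. In 6 clusters a pair shared coding length and exon number, and in 10 of the 14 clusters all members were highest in the same tissue. No such counts are given for other genes, so whether these numbers are particular to the set was not tested. The 3-gene cluster of chromosome 8.3 held genes of 840, 843 and 1356 nucleotides (22653981 to 22657605, 22668504 to 22670083 and 22744030 to 22746734). They had 33.3, 80.5 and 24.6 TMM CPM in flower, 154, 317 and 31.9 in seedpod and 54.6, 63.7 and 17.6 in stem, against at most 0.836 in leaf, 3.30 in nodules and 1.70 in roots. Genes of like size lay together on chromosome 8.4 (24810792 to 24812696 and 24818573 to 24820723), with 421 and 77.0 in seedpod. The 3-gene cluster of chromosome 4.1 joined the pair of 1203-nucleotide copies and an 11-exon gene (31199339 to 31202818) at 17.8, 14.9 and 14.3 TMM CPM in flower, seedpod and stem.

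A neighbouring pair of unlike genes recurred on 2 haplotypes of chromosome 5. On chromosome 5.1 an 11-exon gene on the minus strand (4758273 to 4760998, 942 nucleotides) had 10.9 TMM CPM in flower, 13.0 in seedpod and 30.9 in stem. The 2-exon gene beside it on the plus strand (4765246 to 4767296, 1071 nucleotides) had 32.2, 23.6 and 11.3. On chromosome 5.4 a 10-exon gene on the minus strand (5805293 to 5807816, 948 nucleotides) had 15.8, 35.4 and 54.9, and a 2-exon gene of 1071 nucleotides on the plus strand (5812307 to 5814281) had 36.5, 32.8 and 17.7. Both pairs combined a gene highest in stem with one highest in flower. Leaf, nodules and roots held at most 0.318 TMM CPM for any of the 4. On chromosome 4.2 2 genes of 678 nucleotides (82442272 to 82443364 and 82446513 to 82447504) had 116 and 128 TMM CPM in flower, 38.9 and 44.6 in seedpod and 25.2 and 30.0 in stem. A pair of single-exon genes of 798 nucleotides on chromosome 6.3 (6555465 to 6556262 and 6559669 to 6560466) had 32.0 and 132 in flower, 98.3 and 341 in seedpod and 25.2 and 256 in stem. The first of these had 1 count each in nodules and roots and 0 in leaf, and its ratio of 207 has an interval of 36.8 to 8189.

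The same limits of level and ratio gave fewer genes for any 2 of the 3 tissues against the other 4 libraries. Flower and seedpod shared 71 genes (0.0431% of all annotated genes), flower and stem 28 (0.017%) and seedpod and stem 23 (0.014%). Flower, seedpod, stem and leaf together shared 211 genes against nodules and roots (0.128%). Of these 211, 4 were also among the 238. Each pair set has its own, different low side that includes the third tissue, so these numbers describe separate rules. The median coding length was 1362 nucleotides in the flower and seedpod set, 636 in the flower and stem set, 1290 in the seedpod and stem set and 837 in the set with leaf. Their single-exon shares were 18.3%, 35.7%, 26.1% and 21.8%, compared with 15.5% of the 238.

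At the limits themselves, values lay close together. Just inside the ratio limit, a gene on chromosome 8.3 (11808618 to 11810513) was lowest in stem, at 18.2 TMM CPM against 1.81 in leaf, a ratio of 10.1 (5.75 to 19.3). The next members, on chromosomes 2.2 (11313472 to 11317954) and 7.1 (36294003 to 36296910), had ratios of 10.1 and 10.2. Just outside, genes on chromosomes 4.3 (21453771 to 21457333), 8.3 (53581549 to 53585865) and 3.3 (13591902 to 13592465) had ratios of 9.99, 9.98 and 9.96. The last of these lay near the flower-led member of chromosome 3.3 and was led by flower too, with 1908 TMM CPM in flower, 193 in seedpod and 111 in stem, against 11.1, 4.89 and 4.03 in leaf, nodules and roots. At the level limit, the lowest members had 10.2, 10.3 and 10.4 TMM CPM in their lowest tissue, and the highest genes left out by level had 9.92, 9.83 and 9.83.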

How the data were processed

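For 6 libraries of pooled RNA, 1 per tissue, the deposited file holds unnormalized whole read counts for each gene beside exon positions, strand and summed exon length, per the file headers. The submitters' processing notes list featureCounts, Trimmomatic, edgeR and FastQC, with no version. For the aligner, genome build, strand setting and reads matching several genes, the entry is "not given in the sources used here". Summed exon lengths were multiples of 3 in 95.6% of genes, hence "coding length". Column totals served as library totals; no row was left out.

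Factors came from edgeR 4.0.16 (TMM, all genes) in R 4.3.3, with DESeq2 1.42.0 size factors as an alternative. The other steps ran in Python 3.11.15 (scipy 1.17.1, pandas 2.3.3, matplotlib 3.10.9, numpy 2.4.6). Ratios whose low side had 0 counts used 3 counts. Alternatives were other scalings, level and ratio limits, floors, a low side without 1 library, thinned counts, other definitions of copies and neighbours, and copies taken as 1. The rule was tested on simulated data. The members, the rule and the comparisons were chosen with earlier results of these data known. Genes were named by rule: by identifier the 2 with the highest lowest-of-3 level, by position the top 10 by that level, the 5 largest ratios with 10 or more counts on the low side, the 5 least even, the 3 largest groups of copies, the largest clusters, and the 3 on each side of the ratio limit. Others given by position were chosen after their values were seen. At 3 counts a library gives 0.288 to 0.418 TMM CPM, which limits low values.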

Additional observations from a re-analysis of the deposited data

How the results depend on the processing

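Each alternative changed 1 choice; summing copies, and shares with 1 gene per group of copies, were added after seeing the data. With DESeq2 size factors 227 genes met the rule, with TMM over genes of 10 or more counts 236, with library totals 303 (237 of the 238 among them), with 1 count as floor 238, and after thinning to the smallest total 238 (234 in common). A minimum of 5 TMM CPM gave 332 genes, of 20 TMM CPM 149, and no minimum 472. A ratio of 5 gave 391, a ratio of 20 gave 118, and the lower end of the interval 140. Without leaf on the low side 586 genes met the rule. With library totals, stem was highest of the 3 in 100 genes and roots highest of the other 3 in 86, the other tallies staying within 1.5 times. Copies required to have 5 or more exons numbered 71 members, against 108 with 3 or more and 144 with 2 or more. Members with a neighbour numbered 26 within 50 and 36 within 200 kilobases. Median length and single-exon share stayed inside their intervals under each scaling and with 1 gene per group of copies. Genes with 1 or 2 exons were not grouped, so copies among them were not removed. The cause of the shifts between alternatives was not tested. No paired analysis was possible because each tissue has 1 library. Pooling hides variation between plants, and with 1 library per tissue a tissue and its preparation cannot be told apart.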

Other observations

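A group of 10 genes with 3 exons and 546 nucleotides on chromosome 7, from 2 to 4 per haplotype, held 2 members (chromosome 7.2, 91224000 to 91224882, and chromosome 7.1, 87118411 to 87119289). The member on chromosome 7.1 had 13.8 TMM CPM in flower, 23.6 in seedpod and 43.2 in stem, against 0 in leaf, 0.122 in nodules and 0.318 in roots. One copy on chromosome 7.4 (92284086 to 92284985) had a similar level in flower (25.9), seedpod (33.5) and stem (38.5), but 15.7 TMM CPM (113 counts) in leaf, where the other 9 copies had at most 3 counts each.

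The group of the 2 members on chromosome 1.2 that were highest in flower had 6 genes of 7 exons and 2016 nucleotides. The copy on chromosome 1.4 (61298115 to 61303502) was far higher in flower, 2698 TMM CPM, with 721 in seedpod, but had 13.2 in stem, against 7.94 in leaf, a ratio of 1.67 (1.22 to 2.31). Summed over the 6 copies, flower stood at 4456 TMM CPM, seedpod at 1348 and stem at 70.4, against 13.0 in leaf, 8.68 in nodules and 6.05 in roots, a summed ratio of 5.43.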
